A study of Mus musculus with 2 samples.

Results

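Of the 95 nuclear-encoded genes that build the mitochondrial respiratory chain, 89 had an accessible promoter in mouse CFU-E. The 95 were the protein-coding genes of the GENCODE M21 annotation of mm10 whose symbols begin with Nduf, Uqcr, Atp5 or Cox followed by 4 to 8, together with Sdha, Sdhb, Sdhc, Sdhd, Cyc1 and Cycs, out of 21911 protein-coding symbols in all. The rule goes by name and uses no measured value, but it was set with earlier results of these data known. By symbol they comprise 38 genes of complex I, 4 of complex II, 9 of complex III, cytochrome c, 18 of complex IV, 17 of complex V and 8 assembly factors of complex I (Ndufaf). Atp5o carries a pair of gene identifiers in the annotation, which were counted as 1 gene.

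CFU-E are red cell progenitors that depend on erythropoietin. They were primary cells of adult male C57BL/6J mice aged 5-6 weeks with no treatment named. Open chromatin was mapped with Tn5 transposase (ATAC-seq) in 2 libraries of 50000 cells each. The libraries are labelled biological replicates 1 and 2, come from separate biosamples and share 1 donor identifier. They form 1 group, so there is no comparison between conditions, and because they were not shown to be independent they were counted as 1 sample. Values therefore carry no SD, and the 2 libraries are given side by side.

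The respiratory chain passes electrons from NADH through complex I, or from succinate through complex II, to ubiquinone, and on through complex III and cytochrome c to oxygen at complex IV. Complexes I, III and IV pump protons across the inner membrane, and complex V, the ATP synthase, uses the gradient to make ATP. Some of the subunits are made from mitochondrial DNA, and the others, complex II in full, from the nuclear genes described here. Several complex IV subunits exist as pairs of genes, 1 used in most tissues and 1 largely restricted to heart and skeletal muscle, lung or testis. Mitochondria of red cell precursors also host the first and last steps of haem synthesis and are removed before the cell is mature. Transcription factors known from other cells to bind promoters of this gene group include NRF1, the ETS factor GABP, YY1 and the oestrogen-related receptor ERR.

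The promoters that the results below turn on are given here first, from the RefSeq promoter table of GRCm38.p6, which runs from 250 bases before to 50 bases after the annotated start, 5′ to 3′ on the strand of the gene. Capitals mark matches, on either strand, of the letters searched for NRF1 (GCATGCGC), ETS factors (CCGGAAG), YY1 (AAGATGGCG), SP and KLF factors (GGGGCGG), CREB-type factors (CRE, TGACGTCA) and ERR (AAGGTCA). The first set is shown for its matches near the start. Cycs encodes cytochrome c, Sdhb the iron-sulphur subunit of complex II, Sdhd a membrane anchor of complex II, Cox6a1 the widely used subunit VIa of complex IV, Atp5e the epsilon subunit of ATP synthase, and Atp5j coupling factor 6 of ATP synthase.
Cycs: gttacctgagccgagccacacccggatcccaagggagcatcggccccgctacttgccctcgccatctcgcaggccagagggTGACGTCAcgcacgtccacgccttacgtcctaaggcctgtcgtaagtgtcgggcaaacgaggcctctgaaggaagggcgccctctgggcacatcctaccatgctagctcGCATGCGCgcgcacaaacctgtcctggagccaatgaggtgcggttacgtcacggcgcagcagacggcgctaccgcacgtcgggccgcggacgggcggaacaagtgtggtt
Sdhb: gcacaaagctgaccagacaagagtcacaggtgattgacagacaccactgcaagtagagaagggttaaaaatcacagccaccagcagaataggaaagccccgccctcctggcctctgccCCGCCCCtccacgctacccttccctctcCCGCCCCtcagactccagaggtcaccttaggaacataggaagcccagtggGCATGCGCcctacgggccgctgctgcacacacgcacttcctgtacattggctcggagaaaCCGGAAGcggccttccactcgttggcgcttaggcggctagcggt
Sdhd: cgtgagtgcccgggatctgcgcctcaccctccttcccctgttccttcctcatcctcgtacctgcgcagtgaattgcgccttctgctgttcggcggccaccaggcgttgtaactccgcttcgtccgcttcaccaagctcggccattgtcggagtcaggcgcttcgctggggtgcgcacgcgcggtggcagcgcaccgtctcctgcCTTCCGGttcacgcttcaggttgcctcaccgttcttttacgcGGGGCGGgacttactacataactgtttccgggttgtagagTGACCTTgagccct
Cox6a1: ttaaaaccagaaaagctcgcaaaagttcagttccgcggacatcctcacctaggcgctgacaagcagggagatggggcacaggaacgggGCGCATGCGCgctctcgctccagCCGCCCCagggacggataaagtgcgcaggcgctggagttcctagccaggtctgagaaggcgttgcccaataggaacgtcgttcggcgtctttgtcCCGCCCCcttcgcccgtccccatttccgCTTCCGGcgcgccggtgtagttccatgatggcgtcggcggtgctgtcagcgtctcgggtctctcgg
Atp5e: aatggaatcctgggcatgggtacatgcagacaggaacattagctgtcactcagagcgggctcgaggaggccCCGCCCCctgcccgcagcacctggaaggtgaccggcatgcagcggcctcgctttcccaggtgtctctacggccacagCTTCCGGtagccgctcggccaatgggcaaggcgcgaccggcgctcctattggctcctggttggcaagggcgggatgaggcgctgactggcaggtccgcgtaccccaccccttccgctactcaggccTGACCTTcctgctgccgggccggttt
Atp5j: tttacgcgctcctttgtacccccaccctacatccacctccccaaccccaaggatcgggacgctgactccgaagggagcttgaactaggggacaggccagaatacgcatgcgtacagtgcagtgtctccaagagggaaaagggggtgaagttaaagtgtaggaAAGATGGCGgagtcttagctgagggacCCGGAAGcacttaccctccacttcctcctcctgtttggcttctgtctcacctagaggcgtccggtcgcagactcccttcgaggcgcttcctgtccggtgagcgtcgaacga

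The second set shows tissue isoforms of complex IV next to their widely used counterparts. Cox7a1 and Cox8b are the heart and muscle forms of subunits VIIa and VIII, and Cox7a2 and Cox8a are the forms used in most tissues.
Cox7a1: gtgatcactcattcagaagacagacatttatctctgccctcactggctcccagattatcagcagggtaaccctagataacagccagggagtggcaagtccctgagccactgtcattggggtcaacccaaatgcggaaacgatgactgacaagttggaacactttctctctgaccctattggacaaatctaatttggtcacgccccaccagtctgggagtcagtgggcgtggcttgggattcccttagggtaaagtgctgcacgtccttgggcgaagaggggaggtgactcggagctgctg
Cox7a2: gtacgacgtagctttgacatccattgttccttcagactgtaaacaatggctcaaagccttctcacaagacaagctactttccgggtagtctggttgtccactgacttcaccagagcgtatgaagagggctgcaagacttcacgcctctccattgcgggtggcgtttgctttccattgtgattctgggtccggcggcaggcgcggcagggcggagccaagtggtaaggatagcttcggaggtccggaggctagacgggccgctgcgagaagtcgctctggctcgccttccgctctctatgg
Cox8b: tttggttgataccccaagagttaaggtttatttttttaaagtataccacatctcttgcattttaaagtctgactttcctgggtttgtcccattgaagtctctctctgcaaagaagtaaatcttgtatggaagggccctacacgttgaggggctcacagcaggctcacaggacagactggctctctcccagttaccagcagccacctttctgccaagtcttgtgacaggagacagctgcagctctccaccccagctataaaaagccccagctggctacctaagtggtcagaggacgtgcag
Cox8a: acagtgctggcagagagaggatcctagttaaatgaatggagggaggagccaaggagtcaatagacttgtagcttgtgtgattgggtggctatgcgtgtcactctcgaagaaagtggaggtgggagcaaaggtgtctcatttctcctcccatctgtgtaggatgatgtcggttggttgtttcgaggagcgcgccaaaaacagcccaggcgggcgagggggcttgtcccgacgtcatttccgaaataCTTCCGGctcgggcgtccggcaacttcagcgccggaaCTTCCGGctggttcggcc

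A promoter region was a merged peak region of the series list that overlapped the window from 1 kb before to 1 kb after any annotated start of the gene. The 89 genes with one made up 93.7% of the 95 (exact 95% interval 86.8% to 97.6%, which covers counting over genes only), against 45.8% of all protein-coding genes. The strongest regions of the 89 genes were 89 different regions. Complex I had a promoter region at 37 of 38 genes, complex II at 4 of 4, complex III at 9 of 9, complex IV at 13 of 18 and complex V at 17 of 17. Cycs had one, and so did 8 of 8 Ndufaf genes. The 6 genes without one were Cox4i2, Cox6a2, Cox7b2, Cox8b and Cox8c of complex IV and Ndufa4l2, counted with complex I by its symbol. All 6 belong to the 8 tissue or condition isoforms, so 2 of 8 isoforms had a promoter region, against 7 of 7 of their widely used counterparts. The exact 95% interval for 2 of 8 was 3.19% to 65.1%, which includes the 45.8% of all protein-coding genes. Outside the isoforms, 87 of 87 genes had one. The counts come from bulk libraries, in which an open promoter in few cells and a weakly open one in every cell cannot be told apart.

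**Figure D1:**
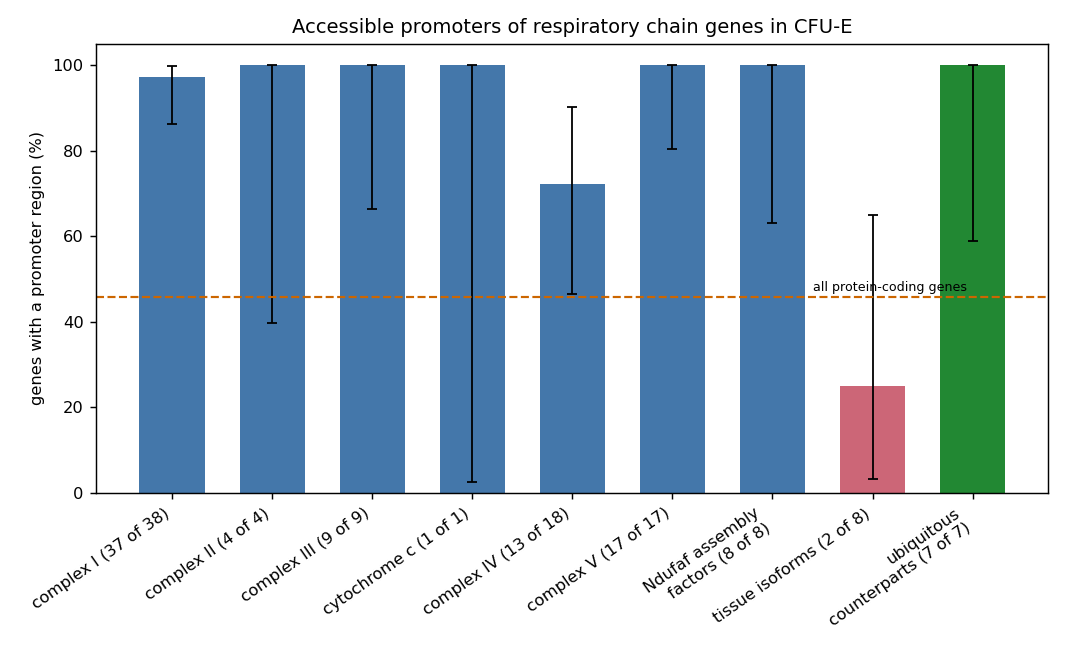
Bars give the percent of genes with a promoter region in the series list for each complex, cytochrome c, the Ndufaf assembly factors, the tissue isoforms and their widely used counterparts, with exact 95% intervals as lines and counts under the axis; isoforms and counterparts are also counted in their complexes. The dashed line is the 45.8% of all protein-coding genes. The tissue isoforms, with 2 of 8, lie below it, but their interval of 3.19% to 65.1% includes it.

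The list of each library gave the same picture. Replicate 1's own list held a promoter region for 89 of the 95 genes, against 43.5% of all protein-coding genes, and replicate 2's own list for 89 of 95, against 42.6%. No respiratory gene (0 of 95) had a region in 1 library and not in the other, against 487 of all protein-coding genes (2.22%). Among protein-coding genes with a promoter region the share was 454 of 10037 (4.52%). At shares this low, 0 of 95 is not shown to differ from other genes.

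The strength of a region is given as its fold enrichment over the local background of the peak caller, the authors' own value, taken from the strongest promoter region of each gene. It is also given as a percentile, the share of all 24394 regions of the series list with a lower fold. Among the 89 genes the median fold was 12.3, at percentile 85.2, with a range of 5.46 to 18.7. Over the 10037 protein-coding genes with a promoter region the median was 10.7, at percentile 75.4. A region in the upper 10% by fold was present at 31 of the 95 genes (32.6%), against 9.95% of all protein-coding genes and 21.7% of those with a promoter region. By complex these were 16 of 38 genes in complex I, 1 of 4 in complex II, 3 of 9 in complex III, 5 of 18 in complex IV, 3 of 17 in complex V and 3 of 8 Ndufaf genes.

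**Figure D2:**
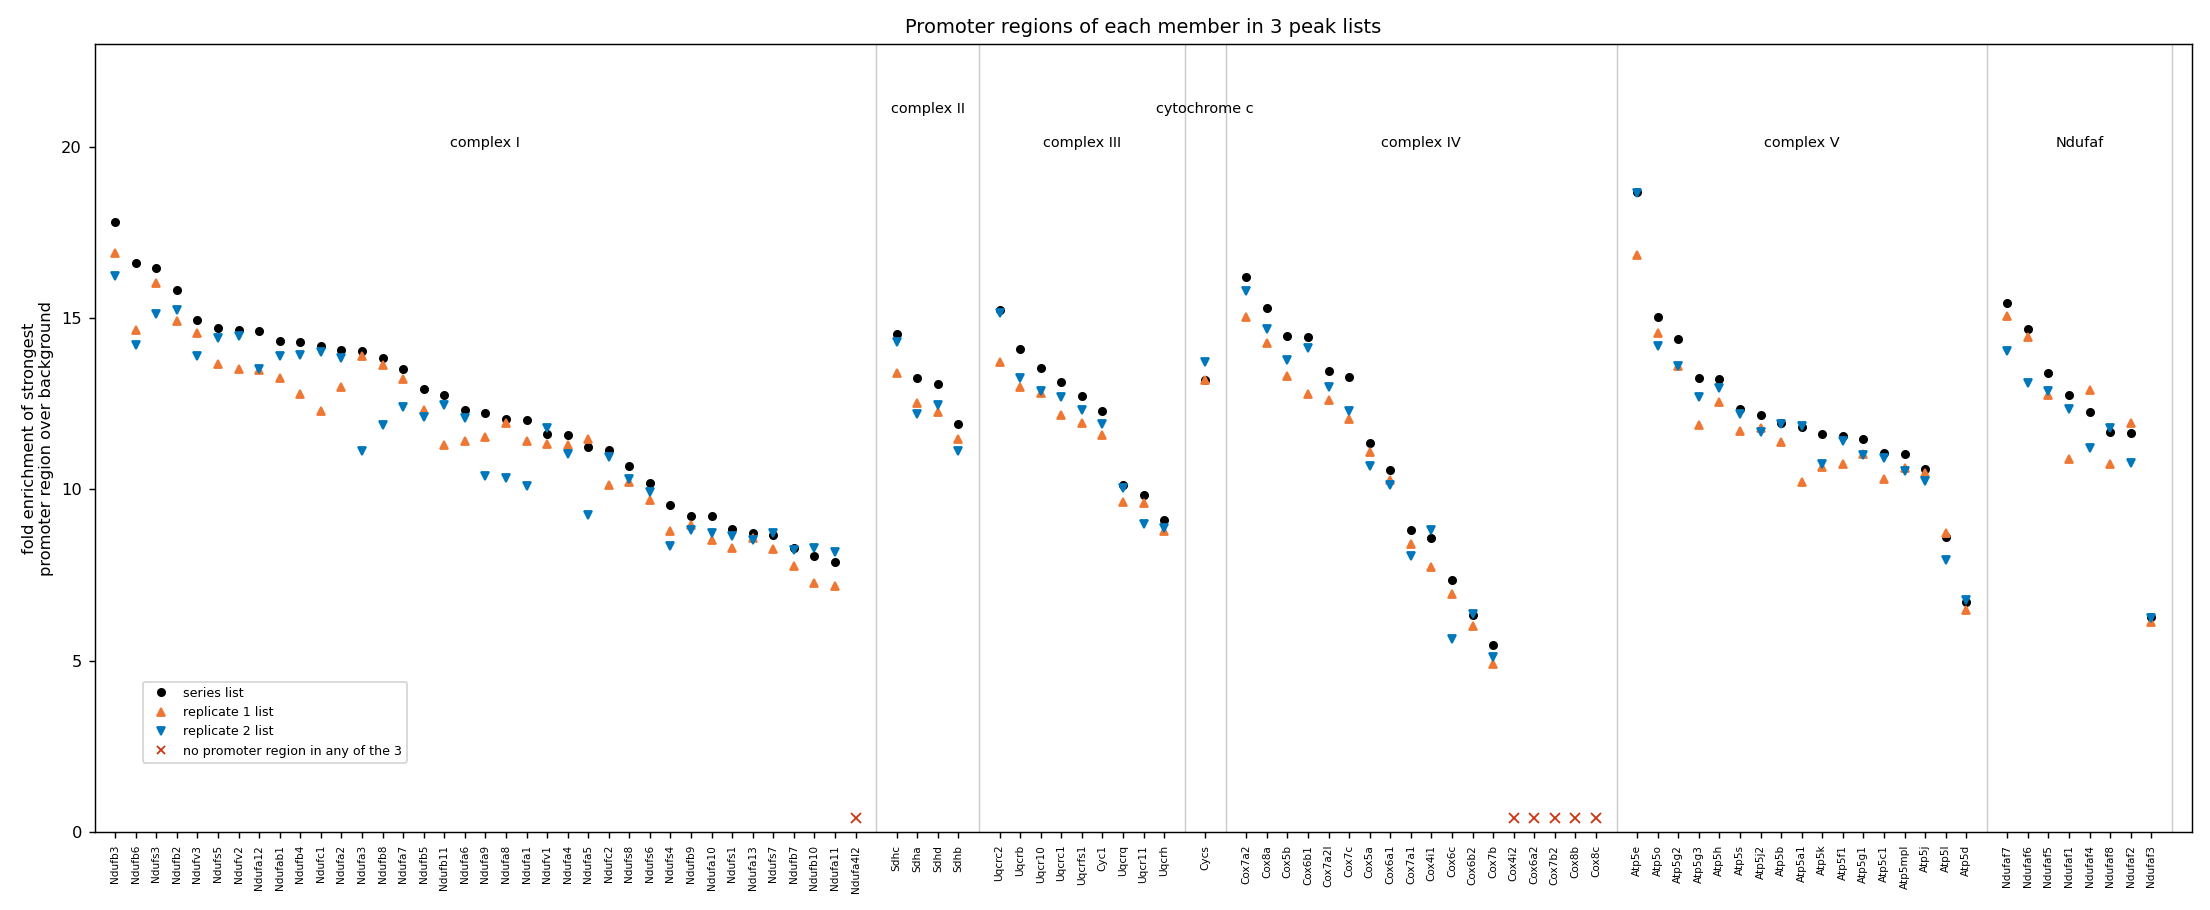
Each column is 1 gene, ordered within its complex from high to low, and the vertical axis is the fold enrichment of its strongest promoter region, for the series and for each replicate; crosses mark genes with no promoter region in any of these. Values run from 18.7 at Atp5e to 5.46 at Cox7b, and 5 of the 6 crosses are in complex IV.

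In complex I, the entry point for electrons from NADH, the highest fold was at Ndufb3, an accessory subunit of the membrane arm, with 17.8 in the series list, 16.9 for replicate 1 and 16.2 for replicate 2. Ndufb6, another accessory subunit of that arm, had 16.6, 14.7 and 14.2 in the same lists. Ndufs3, a core subunit of the arm that carries the iron-sulphur clusters, had 16.5, 16.0 and 15.1. These 3 promoters lay above percentile 98 of the series list. The lowest complex I promoter was that of Ndufa11, an accessory membrane subunit, with a fold of 7.90 in the series list, 7.18 for replicate 1 and 8.16 for replicate 2. Its strongest summit lay 699 bp upstream of the nearest Ndufa11 start. Other core subunits, named here for their role after their values were seen, spread over much of the same range in the series list. The flavoprotein subunit Ndufv1 had a fold of 11.6 and its partner Ndufv2 one of 14.6, while Ndufs8 stood at 10.7, Ndufs1 at 8.86 and Ndufs7 at 8.66. The median over the 37 complex I genes with a region was 12.3.

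Complex II links the citric acid cycle to the chain, and its 4 promoters lay close together. Sdhc, a membrane anchor, had a fold of 14.5 in the series list, 13.4 for replicate 1 and 14.3 for replicate 2. Sdha, the flavoprotein that oxidises succinate, had 13.3, 12.5 and 12.2. The other anchor, Sdhd, had 13.1, 12.3 and 12.5, and Sdhb had 11.9, 11.5 and 11.1. Sdhb was the lowest of the 4 in each list, and the complex spanned percentiles 83.0 to 94.4 of the series list.

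In complex III the core protein gene Uqcrc2 was highest, with a fold of 15.2 in the series list, 13.7 for replicate 1 and 15.1 for replicate 2. The accessory subunits Uqcrb and Uqcr10 followed with 14.1 and 13.5 in the series list, at percentiles 93.1 and 91.0. Cyc1, the cytochrome c1 subunit, had 12.3, 11.6 and 11.9 in the 3 lists. The lowest was Uqcrh, the hinge protein, with 9.10, 8.80 and 8.88. Its promoter held 3 separate regions, and the strongest had its summit 363 bp upstream of the nearest start. Cycs, the mobile carrier between complexes III and IV, had 13.2 in the series list, 13.2 for replicate 1 and 13.7 for replicate 2.

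Complex IV, which passes electrons to oxygen, held both strong promoters and the weakest of the 89. Cox7a2 had a fold of 16.2 in the series list, 15.0 for replicate 1 and 15.8 for replicate 2. Cox8a had 15.3, 14.3 and 14.7, and Cox5b, a subunit on the matrix side, had 14.5, 13.3 and 13.8. At the other end stood Cox7b, the widely used form of subunit VIIb, with 5.46, 4.91 and 5.11, at percentile 25.6 of the series list, 10.6 of replicate 1's list and 11.8 of replicate 2's. Cox7b lies on the X chromosome, as do Ndufa1 and Ndufb11 of complex I, whose promoters had folds of 12.0 and 12.8 in the series list. Cox6c was also low, with 7.34, 6.96 and 5.64. The median over the 13 complex IV genes with a region was 11.4.

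In complex V, Atp5e had a fold of 18.7 in the series list, 16.8 for replicate 1 and 18.6 for replicate 2. It was the highest of the 95 genes in the series list and in replicate 2's, and Ndufb3 was higher in replicate 1's. Atp5o, the stalk subunit that confers oligomycin sensitivity, had 15.0, 14.6 and 14.2, and Atp5g2, a gene for the c subunit of the rotor, had 14.4, 13.6 and 13.6. Atp5a1 and Atp5b, the alpha and beta subunits of the catalytic head, had 11.8 and 11.9 in the series list. Atp5d, the delta subunit of the rotor stalk, was lowest with 6.73, 6.50 and 6.79. Its promoter window was divided among 4 regions, the strongest only 361 bp wide, and the second strongest of these had a fold of 6.30. More than 1 promoter region was seen at 8 of the 95 genes (8.42%), against 11.7% of all protein-coding genes. Among genes with at least 1 region the share was 8 of 89 (8.99%), against 25.6%.

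Among the Ndufaf genes, which help to build complex I, Ndufaf7, a methyltransferase, had a fold of 15.4 in the series list, 15.1 for replicate 1 and 14.0 for replicate 2. Ndufaf6 had 14.7, 14.4 and 13.1, and Ndufaf5, which modifies Ndufs7, had 13.4, 12.7 and 12.9. Ndufaf3 was far below the other 7, with 6.29, 6.14 and 6.24, at percentile 35.9 of the series list, 23.1 of replicate 1's and 24.2 of replicate 2's. The next lowest, Ndufaf2, stood at percentile 81.5 of the series list.

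Of the tissue isoforms, Cox7a1 and Cox6b2 had promoter regions, both weaker than those of their counterparts. The Cox7a1 region, chr7:30183931-30184457 on mm10, had a fold of 8.82 in the series list, 8.42 for replicate 1 and 8.06 for replicate 2, against 16.2, 15.0 and 15.8 for Cox7a2. Its summit lay 21 bp upstream of the nearest annotated start, inside the sequence printed above. The Cox6b2 region, chr7:4751976-4753261, had 6.34, 6.02 and 6.37, against 14.4, 12.8 and 14.1 for Cox6b1. Cox6b2 is the testis form of subunit VIb. Its summit lay 84 bp upstream of 1 of 7 annotated starts and 482 bp downstream of the outermost one. Most marker genes of tissues that use such isoforms had no promoter region. Among muscle and heart genes, Actn2 had a promoter region with a fold of 5.71 in the series list and in neither library's own list, and Myh6, Myh7 and Ckm had none. The 3 testis genes, Prm1, Tnp1 and Acrv1, had none in the series list. In an overlap list 1 of 3 testis genes and 2 of 4 muscle and heart genes had one, against 52.1% of all protein-coding genes. The part of other cells in the isoform regions was not tested.

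For the 6 isoforms without a promoter region, none of the conservative, overlap or single-library lists held one either. The nearest region of the series list began 1.74 kb from a start of Ndufa4l2, a gene induced by low oxygen in other cells, and had a fold of 8.07. For Cox8b the nearest was 2.49 kb away with a fold of 5.36. The distance was 11.3 kb for Cox4i2, the lung form of subunit IV, 20.5 kb for Cox8c, the testis form of subunit VIII, and 30.8 kb for Cox6a2, the heart and muscle form of subunit VIa. For Cox7b2, the testis form of subunit VIIb, it was 619 kb. In an overlap list a region lay nearer to Cox6a2, at 1.863 kb, and to Cox4i2, at 3.095 kb, and the other distances were the same. The counterparts Ndufa4, Cox8a, Cox4i1, Cox6a1 and Cox7b had folds of 11.6, 15.3, 8.59, 10.6 and 5.46 in the series list. In the series list Cox4i1 and Cox7b were thus lower than the isoform Cox7a1, but for replicate 2 Cox4i1 stood at 8.81 and Cox7a1 at 8.06. Ndufa4 is counted with complex I by its symbol but is now held to be a subunit of complex IV.

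**Figure D3:**
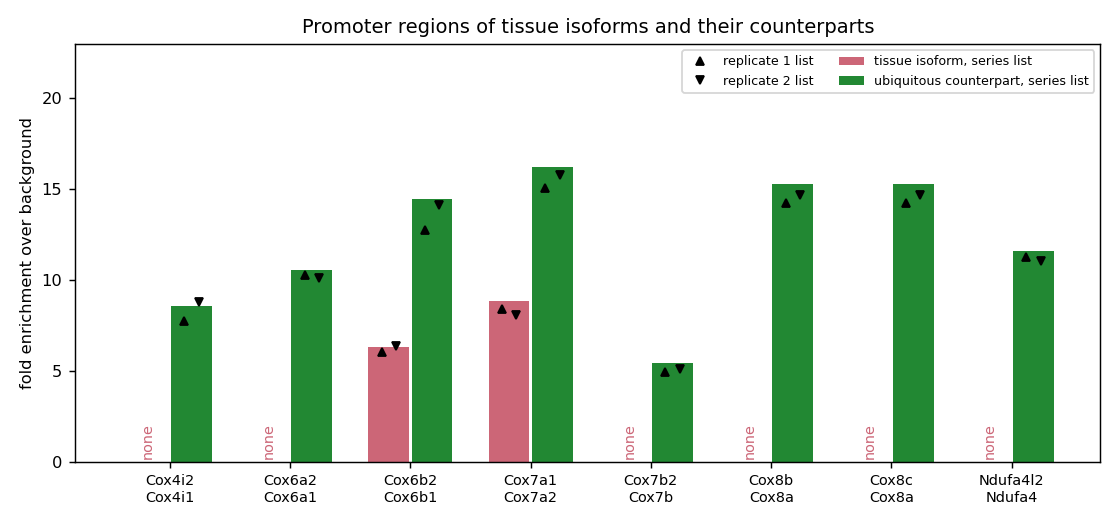
Pairs of bars give the fold enrichment of the strongest promoter region in the series list for each tissue isoform (left) and its widely used counterpart (right), with triangles for the lists of replicates 1 and 2; "none" marks a gene with no promoter region. Cox8a stands beside both Cox8b and Cox8c, and Cox7a1 at 8.82 is the highest isoform.

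Of the isoforms with a promoter sequence, Cox7a1, Cox8b and Cox6b2 were poorer in CpG than their counterparts, and Cox7b2 was not. Cox4i2, Cox6a2, Cox8c and Ndufa4l2 had no entry in the promoter table. The Cox6b2 entry is for a start 482 bp upstream of its strongest summit. The ratio of observed to expected CpG, which is high in CpG islands and low in most of the genome, was 0.333 in the Cox7a1 promoter and 0.833 in that of Cox7a2. It was 0.115 for Cox8b and 0.842 for Cox8a, and 0.432 for Cox6b2 and 0.807 for Cox6b1. For Cox7b2 and Cox7b the order was the other way, at 0.564 and 0.368, although Cox7b had a promoter region and Cox7b2 had none. The median was 0.833 over the 75 genes with both a promoter region and a table entry. Cox8a held the ETS letters at 2 places, 5 bases before the start and 33 bases after it, and Cox7a1, Cox7a2 and Cox8b held none of the letters marked in capitals. Other letters were searched but not marked. Of these, Cox7a1 held those for GATA factors (AGATAA) 223 and 177 bases before the start. Cox7a1 and Cox8a held those for NFY (CCAAT), and Cox8b held TATA letters (TATAAA) 5 bases after the start.

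Where a promoter region was present, its summit usually lay at the start. The median distance of the strongest summit from the nearest annotated start was 34 bp for the 89 genes, against 57 bp for all protein-coding genes with a promoter region. The summit lay within 100 bp of a start at 72 of the 89 genes (80.9%), against 67.4%, and upstream of it at 75.3%, against 76.5%. The regions had a median width of 1091 bp, against 942 bp. The summits farthest from a start were those of Ndufa13, 875 bp downstream, and Ndufa11.

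Many of the genes share their promoter with a neighbour that is read the other way. A protein-coding neighbour started within 1 kb on the opposite strand, in divergent orientation, at 34 of the 95 genes (35.8%), against 11.0% of all protein-coding genes and 21.5% of those with a promoter region. This held for 15 of 38 genes in complex I, 3 of 4 in complex II, 4 of 9 in complex III, 1 of 18 in complex IV, 7 of 17 in complex V and 4 of 8 Ndufaf genes. In 33 of the 34 pairs 1 region lay in the promoter windows of both genes. The fold of a shared region cannot be assigned to 1 gene of the pair. Several neighbours also serve mitochondria or translation. Atp5j starts 93 bp from Gabpa, which encodes the DNA-binding subunit of GABP, and Sdhd starts 98 bp from Timm8b, a mitochondrial import chaperone. Ndufs6 starts 51 bp from Mrpl36 of the mitochondrial ribosome, and Ndufa7 starts 10 bp from Rps28 of the cytosolic ribosome. The median fold was 12.0 at the 34 genes with a neighbour of this kind and 12.3 at the other 55 with a region.

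The 2 libraries ranked these promoters alike. Taking the percentile of the fold within each library's own list, the median absolute difference between the libraries was 3.53 percentile points over the 89 genes, against 4.13 over the 9188 protein-coding genes with a region in both. Across the 89 genes the correlation of the percentiles was 0.952 (Pearson) and 0.921 (Spearman), given as a description, since the genes share libraries and depth. The largest gap was at Ndufa5, an accessory subunit of complex I, at percentile 79.4 for replicate 1 and 59.5 for replicate 2, with folds of 11.5 and 9.27. In the other direction Atp5a1 stood at percentile 68.6 for replicate 1 and 82.6 for replicate 2. Cox6c stood at percentile 33.3 in replicate 1 and 17.1 in replicate 2.

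**Figure D4:**
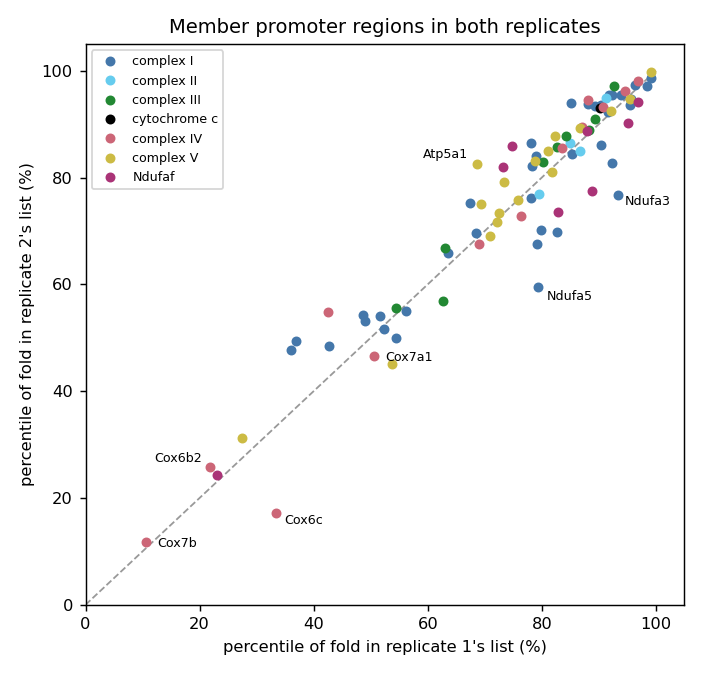
Each point is 1 of the 89 genes with a promoter region, placed by the percentile of its fold in replicate 1's list (horizontal) and in replicate 2's list (vertical), coloured by complex; the dashed line marks equal percentiles. Most points lie in the upper right, and Ndufa5 and Ndufa3 lie farthest below the line.

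Motif letters were counted on both strands of the RefSeq promoters, which were available for 75 of the 89 genes with a promoter region and for 8141 of all protein-coding genes with one. Another 2 members with an entry, Cox7b2 and Cox8b, had no promoter region. The NRF1 letters were present in 13 of 75 promoters (17.3%, exact 95% interval 9.57% to 27.8%), against 6.41% of the 8141 and 2.71% of all 32851 promoters in the table. The YY1 letters were in 8 of 75 (10.7%, interval 4.72% to 19.9%), against 4.02% and 1.40%. The ERR letters were also in 8 of 75 (10.7%, interval 4.72% to 19.9%), against 2.75% and 4.72%. The lower end of that interval thus lay at the share of all promoters. The ETS letters were in 18 of 75 (24.0%), against 22.0% and 8.86%, close to the share of accessible promoters. The SP and KLF letters were rarer than in accessible promoters, at 23 of 75 (30.7%, interval 20.5% to 42.4%), against 46.3% of these and 23.2% of all promoters. Letters for NFY (CCAAT) were in 45.3%, against 41.3% and 37.4%. CRE letters were in 6.67%, against 3.76% and 1.79%, and E-box letters (CACGTG) in 8.0%, against 11.0% and 7.15%. Letters for GATA factors (AGATAA) were in 8.0%, against 6.01% and 11.2%, and TATA letters (TATAAA) in 6.67%, against 6.19% and 13.6%. No searched motif contains another, and an NRF1 match on 1 strand can overlap a match on the other, as in Cox6a1. Within 100 bp of the strongest summit, NFY and GATA letters stood the other way to accessible promoters, at 30.3% against 36.6% and at 1.12% against 4.10%. A match is a description of the letters and not of a bound factor.

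**Figure D5:**
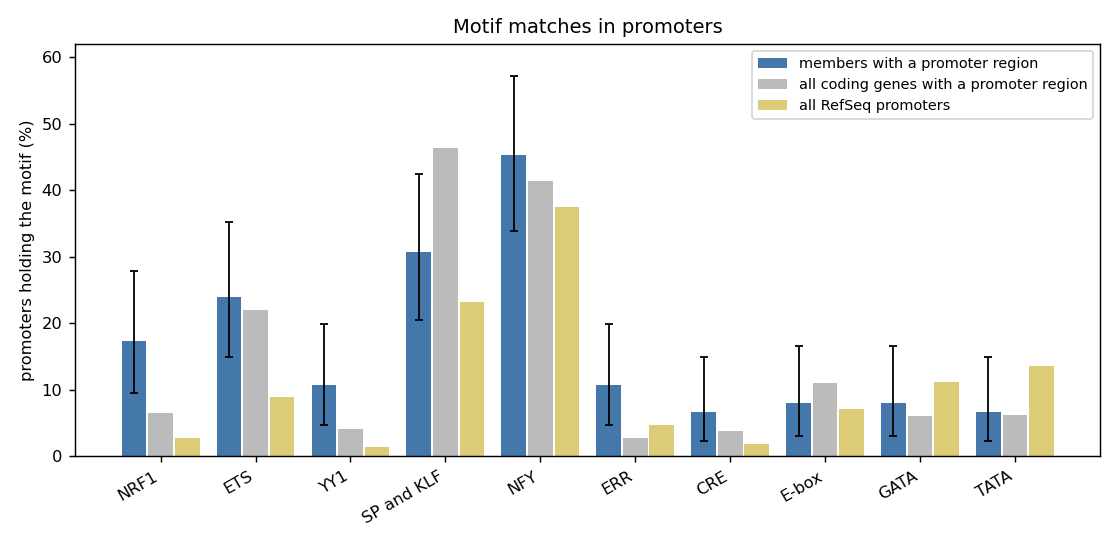
Bars give the percent of RefSeq promoters that hold each motif, for the 75 respiratory genes with a promoter region (with exact 95% intervals), the 8141 protein-coding genes with a promoter region and all 32851 promoters of the table. NRF1, YY1, ERR, ETS, NFY and CRE letters are more frequent in the respiratory genes than in both other sets. For ETS, NFY and CRE the interval includes the share of accessible promoters. SP and KLF letters are less frequent than in accessible promoters.

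Strand and place of the matches are given beside those in accessible promoters. The YY1 letters were read in the direction of the gene in 8 of 8 members, against 75.8% of the 327 accessible promoters with them. In 7 of the 8 they began after the start, between 11 and 36 bases into the transcript, against 56.3% with a match so placed. Those 7 were Ndufa9, Ndufc1, Ndufs4, Ndufs6, Ndufs7, Ndufaf8 and Atp5j2. The exception was Atp5j, in which they began 88 bases before the start and 27 bases ahead of the ETS letters. NRF1 letters began after the start or no more than 100 bases before it in 11 of 13 members, against 73.4% of accessible promoters with them. They stood 60 bases before the start in Cycs and 54 in Sdhb. The YY1 and NRF1 shares rest on 8 and 13 members and were not shown to differ from those of accessible promoters. By complex, NRF1 letters were found in 3 of 33 promoters of complex I, 1 of 3 of complex II, 2 of 5 of complex III, 1 of 11 of complex IV, 3 of 15 of complex V and 2 of 7 Ndufaf genes, and in Cycs. ERR letters were found in 3 of 33 in complex I (Ndufb2, Ndufb4 and Ndufs5), in Sdhd, and in 4 of 15 in complex V (Atp5e, Atp5g3, Atp5k and Atp5l). None of the promoters of complexes III and IV or of the Ndufaf genes held them. YY1 letters were found in complexes I and V and in 1 Ndufaf promoter. Accessible promoters held NRF1 letters in 6.41%, ERR letters in 2.75% and YY1 letters in 4.02% of cases. With so few promoters per complex, the counts are not shown to differ between complexes. At least 1 of the NRF1, ETS and YY1 letters was present in 32 of the 75 promoters (42.7%), against 29.9% of accessible promoters, and 7 of the 75 (9.33%) held letters of 2 of these factors, against 2.47% with letters of 2 or more. The genes named in this paragraph outside the complex extremes were picked after their values were seen.

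A distal region was one whose midpoint lay more than 1 kb from every annotated start. Within the sequence nearest to each gene, up to 100 kb from its starts, 27 of the 95 genes (28.4%) had at least 1, against 25.9% of all protein-coding genes. Among genes with a promoter region the share was 24 of 89 (27.0%), against 39.9% of all such protein-coding genes. The distal region of Cox6a1 reached into its promoter window and was counted there as well. Cox4i2, with no promoter region, had the most, with 4 regions whose midpoints lay between 11.5 and 34.2 kb downstream and folds of 6.23 to 9.69. The strongest distal region was 26.7 kb downstream of Uqcr10, chr11:4676921-4677784, with a fold of 13.0, followed by 1 of fold 12.6 upstream of Ndufaf6 and 1 of fold 11.9 upstream of Ndufv1. Proximity does not show which gene a distal region serves.

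Most of the listed genes that work with the chain had a promoter region as well. The share of all protein-coding genes was 45.8%, and the median fold of those with a region was 10.7. Assembly factors outside the Ndufaf names had a promoter region in 7 of 7 cases for complex I (Nubpl not in replicate 2's list), 3 of 4 for complex II (not Sdhaf1), 6 of 6 for complex III, 18 of 18 for complex IV and 3 of 3 for complex V. Of the last, Atpaf1, a chaperone of the ATP synthase, had a fold of only 4.67 and a region in neither library's own list. Genes for transcription and copying of mitochondrial DNA had one in 12 of 12 cases with a median fold of 13.3, and their factor Tfam stood at 16.5. The citric acid cycle had 13 of 13, with a median fold of 10.8 and the lowest value, 5.86, at citrate synthase (Cs). That median was close to the 10.7 of all protein-coding genes with a region. Among regulators of respiratory genes 10 of 11 had a promoter region, with a median fold of 10.2. These included Nrf1 with a fold of 9.85 and Esrra, which encodes ERR alpha, with 12.6. Gabpa had 10.6, in the same region that was counted for Atp5j. Ppargc1a, the coactivator induced in muscle and brown fat, had none, and its relative Ppargc1b had one with a fold of 6.38 that was not in replicate 2's list. As to the labelled cell type, 10 of 10 erythroid marker genes had a promoter region (Alas2 in neither library's own list), with a median fold of 6.32. Their median was below the 10.7 of all protein-coding genes with a region. B cell, T cell and liver genes had 0 of 3 each, and granulocyte and monocyte genes 1 of 5 (Prtn3, fold 4.12, in neither library's own list). The exact 95% interval reached 70.8% for 0 of 3 and ran from 0.505% to 71.6% for 1 of 5. Both include the 45.8% of all protein-coding genes.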

How the data were processed

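ATAC-seq peak lists of 2 CFU-E libraries were analysed. The authors called peaks per library and on pooled reads (mm10), per the deposited listing of files. They deposited lists thresholded on IDR (the irreproducible discovery rate, a measure of how well peaks repeat), a conservative list and overlap lists. Aligner, peak caller and settings, the Tn5 shift included, were not given in the sources used here. Each fold is the authors' own, ratio of a peak over local background, the p-values and q-values were deposited as −log10 values, and the score of each peak is the authors' own. Read depth is unknown from peak lists.

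Records that overlapped or touched were merged (overlap of at least 1 bp), giving 24394 regions in the series list, 18685 in replicate 1's and 17854 in replicate 2's. Positions are 1-based on mm10. Starts came from GENCODE M21, with genes united by symbol (96 gene identifiers for 95 members). Chromosome lengths of GRCm38.p6 contained every peak. Promoter sequences came from RefSeq, GRCm38.p6. Of the members, 77 had an entry, 2 of them matched by gene identifier, and 200 of 200 sampled entries equalled the genome. Intervals are Clopper-Pearson at 95% and cover counting over genes only. No test was made, since there is 1 group counted as 1 sample. Genes named are the 3 highest and the lowest of each complex and of the Ndufaf genes by fold, all members without a promoter region, the isoforms and counterparts, Cycs, Cyc1 and the Sdh genes. Others are named for their role, neighbour or motif after their values were seen. The members, lists and motifs were chosen with earlier results of these data known. Alternatives were other windows, other lists, summits, the outermost start and each library alone. Values of 1 complex I gene are not reported here, and counts and medians include it. The region and motif searches were tested on simulated data. Python 3.11.15, pandas 2.3.3, numpy 2.4.6, scipy 1.17.1, pysam 0.24.0 and matplotlib 3.10.9 were used.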

Additional observations from a re-analysis of the deposited data

How the results depend on the processing

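No paired analysis was possible because the 2 libraries form 1 group and no result comes from a test. The 89 members with a promoter region were 89 with a window of 500 bp, with a summit required inside the window, and in the conservative list and both overlap lists, and 90 with a window of 2 kb, which added Ndufa4l2. With the outermost start alone the count was 87. Among the upper 50% of regions by fold it was 84, without Atp5d, Cox6b2, Cox6c, Cox7b and Ndufaf3, and the tissue isoforms with a region came to 1 of 8. All protein-coding genes with a region ranged from 8188 in that upper part to 11450 in the overlap list from the true replicates. Leaving out 1 library gave 89 to 89 members and 9338 to 9525 protein-coding genes, and the members' median percentile by fold, 85.2, was 81.0 to 82.7. It was 85.6 by −log10 p and 85.2 in the conservative list. Without replicate 1, 23 of 32 named members moved in percentile by more than the spread between the libraries, and without replicate 2, 25 of 32 did; each library's own list has its own scale. With motifs counted within 100 bp of the summit in place of the RefSeq promoter, the NFY letters were in 30.3% of members and the GATA letters in 1.12%, against 36.6% and 4.10% of accessible promoters, so neither was above these any longer; the cause was not tested. The other 8 motifs stayed within their intervals. Read depth is unknown, and a gene without a region is not shown to be closed.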

Other observations

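Processed pseudogenes with symbols derived from the members, a list added after the data were seen, had a region within 1 kb in 3 of 12 cases, against 2.44% of 9940 processed pseudogenes in the annotation. They were Atp5l2-ps with a fold of 16.0, Ndufb4c with 8.39 and Ndufs6b with 5.08. How reads that map to several places were handled is not stated in the sources used here.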
